A study of Mus musculus with 7 samples.

Results

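Matrix metalloproteinases (MMPs) are zinc-dependent enzymes that cut collagens and the other proteins around cells, and tissue inhibitors of metalloproteinases (TIMPs) block them. The loci described here are those of 6 MMP genes (Mmp2, Mmp3, Mmp9, Mmp10, Mmp13 and Mmp14) and 2 inhibitor genes (Timp2 and Timp3). They are 8 of 21938 protein-coding genes of the mouse annotation (GENCODE M21, mm10). Each locus was the gene body with 10 kb on either side, and every ATAC-seq peak touching it by at least 1 bp was taken. Overlapping or touching peaks of the 7 libraries were merged into regions, which gave 40 regions at these loci of 104346 in the genome. ATAC-seq marks open chromatin by the cuts a transposase makes there, and a peak is a stretch that the authors' caller judged to hold more cuts than its surroundings.

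The study followed mouse embryonic fibroblasts (MEFs) towards induced pluripotency. The MEF libraries are an untreated one (day 0) and 5 from cells kept for 1, 2, 3, 6 and 9 days in doxycycline at 2 µg/mL, and the last library is from untreated Bruce-4 embryonic stem cells (ESCs). All MEFs carry the doxycycline-driven Pou5f1, Klf4, Sox2 and Myc cassette in Col1a1 (allele Col1a1tm1(tetO-Pou5f1,-Klf4,-Sox2,-Myc)Hoch) and the activator rtTA*M2 in ROSA26 (allele Gt(ROSA)26Sortm1(rtTA*M2)Jae), on B6;129S4 and B6.Cg backgrounds, so the day 0 cells hold the cassette too. They came from mid-gestation embryos, and the label of the ESC library lists the same alleles although it names another line. Per the study's methods the medium was changed to ESC medium near the end of the course, so the day 9 cells differ from the earlier ones in medium as well as in days of doxycycline. The same methods give doxycycline in MEF medium with more serum than that used to grow MEFs. Serum and doxycycline therefore cannot be told apart between day 0 and the doxycycline days. Each time-point is 1 library, so no difference between libraries has a replicate check and no p-value is given.

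MMPs are secreted or membrane-bound as inactive proenzymes and become active once their propeptide is removed. Mmp13 encodes a collagenase, Mmp3 and Mmp10 encode stromelysins, Mmp2 and Mmp9 encode gelatinases, and Mmp14 encodes a membrane-type MMP that activates pro-MMP2 on the cell surface with the help of TIMP2. Fibroblasts are among the cells that make and secrete them in connective tissue. Promoters of several inducible MMP genes are textbook targets of AP-1, the Fos and Jun dimer.

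The markers went with the MEF label more clearly than with the ESC label. Of 10 fibroblast marker genes, 8 had a peak within 1 kb of the start site on day 0, 5 to 7 on the doxycycline days and 2 in ESCs (Twist1 and Snai2). Within 10 kb of the gene body the counts were 10 on day 0, 9 or 10 on the doxycycline days and 7 in ESCs. Of all protein-coding genes, 54.5% had a start-site peak on day 0 and 46.0% in ESCs, and 76.5% and 66.6% had one within 10 kb. Of 10 pluripotency marker genes, 1 had a start-site peak in ESCs (Zfp42) against 3 on day 0 (Pou5f1, Utf1 and Tfcp2l1) and 1 to 4 on the doxycycline days. Pou5f1 and Sox2 are also genes of the cassette. Nanog, Esrrb, Tdgf1 and Dppa4 had no start-site peak in any library. Within 10 kb of the gene body, 8 of these 10 had a peak in ESCs, 6 on day 0 and 6 to 8 on the doxycycline days, and those at Zfp42 and Dppa4 were seen in ESCs alone. The libraries held 61241 peaks on day 0, 33007 to 48087 on the doxycycline days (fewest on days 2 and 9) and 27074 in ESCs. Per the study's methods all libraries were downsampled to 1 read depth, whose value is not given. A missing peak means that none was called, not that the site was closed. In such bulk samples, fewer cells with an open site and less opening in each cell cannot be told apart. Of the other cell types that a MEF culture could hold, 2 of 6 macrophage, 3 of 4 endothelial and none of 4 epithelial marker genes had a start-site peak on day 0, against 1, 1 and 1 in ESCs. The part of these cells in the results below was not tested.

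The sequences shown first are those at the centre of the region of each locus with a peak in the most libraries, or the widest of them where several tied, 200 bases on the plus strand of mm10. Centres that lie on a UTR were passed over, and Mmp3 had no region. Capitals mark the letters of 7 factor motifs that were searched on both strands: AP-1 TGAGTCA, Oct ATGCAAAT, Sox ACAATG, KLF GGGTGTG, RUNX TGTGGT, TEAD ACATTCC and ETS AGGAAG. The last 3 regions, chosen after their values were seen, follow because they hold Oct or AP-1 letters.
Mmp13, 2.37 kb upstream, chr9:7270041-7270240: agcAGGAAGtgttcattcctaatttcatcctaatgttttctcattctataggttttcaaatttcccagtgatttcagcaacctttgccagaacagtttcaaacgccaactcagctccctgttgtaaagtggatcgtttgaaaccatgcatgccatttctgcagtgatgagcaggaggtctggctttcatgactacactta
Mmp10, 2.95 kb upstream, chr9:7499305-7499504: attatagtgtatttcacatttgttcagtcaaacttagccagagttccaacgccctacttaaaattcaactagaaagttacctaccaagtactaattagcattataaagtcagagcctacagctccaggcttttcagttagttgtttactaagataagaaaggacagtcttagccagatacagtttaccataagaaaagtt
Mmp2, 8.96 kb upstream, chr8:92818234-92818433: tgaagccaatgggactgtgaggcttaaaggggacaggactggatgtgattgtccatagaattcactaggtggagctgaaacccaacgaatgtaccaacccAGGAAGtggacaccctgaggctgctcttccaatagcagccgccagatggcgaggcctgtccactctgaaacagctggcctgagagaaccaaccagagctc
Mmp9, 1.94 kb upstream, chr2:164938746-164938945: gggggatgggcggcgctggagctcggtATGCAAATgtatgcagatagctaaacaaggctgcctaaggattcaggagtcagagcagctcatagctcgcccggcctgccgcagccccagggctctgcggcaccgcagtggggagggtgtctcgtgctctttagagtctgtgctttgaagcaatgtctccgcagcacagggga
Mmp14, 17.7 kb past the start, chr14:54449243-54449442: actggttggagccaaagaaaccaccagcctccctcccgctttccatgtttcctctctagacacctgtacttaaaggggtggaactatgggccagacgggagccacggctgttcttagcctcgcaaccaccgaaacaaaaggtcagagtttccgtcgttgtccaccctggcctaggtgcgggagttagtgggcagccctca
Timp2, 28.1 kb past the start, chr11:118327538-118327737: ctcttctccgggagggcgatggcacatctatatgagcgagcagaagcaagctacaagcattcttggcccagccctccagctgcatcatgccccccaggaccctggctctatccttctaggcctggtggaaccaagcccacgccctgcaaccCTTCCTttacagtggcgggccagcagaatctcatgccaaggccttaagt
Timp3, 39.6 kb past the start, chr10:86339839-86340038: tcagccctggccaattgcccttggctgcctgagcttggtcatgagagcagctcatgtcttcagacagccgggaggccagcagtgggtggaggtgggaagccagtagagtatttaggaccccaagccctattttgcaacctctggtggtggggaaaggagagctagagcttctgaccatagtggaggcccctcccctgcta
Mmp2, 5.96 kb upstream, chr8:92821230-92821429: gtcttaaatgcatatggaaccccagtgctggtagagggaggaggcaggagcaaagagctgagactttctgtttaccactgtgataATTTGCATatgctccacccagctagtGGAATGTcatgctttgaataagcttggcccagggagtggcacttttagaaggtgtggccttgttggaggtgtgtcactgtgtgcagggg
Timp2, 17.9 kb past the start, chr11:118337728-118337927: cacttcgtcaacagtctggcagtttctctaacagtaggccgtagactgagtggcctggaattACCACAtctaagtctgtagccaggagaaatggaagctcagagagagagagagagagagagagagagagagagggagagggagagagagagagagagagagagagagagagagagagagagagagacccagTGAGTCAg
Timp2, 9.58 kb upstream, chr11:118365222-118365421: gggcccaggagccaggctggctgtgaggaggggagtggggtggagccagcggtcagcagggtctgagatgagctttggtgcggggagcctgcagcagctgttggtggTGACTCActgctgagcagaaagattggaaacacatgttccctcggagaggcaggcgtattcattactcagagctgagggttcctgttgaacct

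The 8 loci held 30 peaks on day 0, then 19, 18, 21, 24 and 15 peaks on days 1, 2, 3, 6 and 9, and 10 peaks in ESCs. The day 0 library was the highest and the ESC library the lowest, and the doxycycline libraries lay between without a steady order. The whole libraries had the same extremes: day 0 held 2.26 times as many peaks as ESCs genome-wide and 3.00 times as many at these loci. Among the doxycycline libraries the 2 orders differed. Day 6 had the most peaks at the loci, while day 3 had the most genome-wide (48087, against 44855 on day 6). The loci took between 0.0369% (ESCs) and 0.0543% (day 2) of the peaks of a library, with 0.0490% on day 0. Scaled to length, the pooled loci had 8.63 peaks per 100 kb on day 0, where the median protein-coding window had 3.90, and 2.88 in ESCs, where the median was 1.99. The median of the 8 loci themselves was 8.78 on day 0 and 1.81 in ESCs. Among 27074 peaks, the widest of each library, the count at the loci was 15 on day 0, 14 on days 1, 2, 3 and 9, 17 on day 6 and 10 in ESCs. That list keeps a smaller part of the day 0 peaks than of the others. Among peaks at least 300 bp wide, day 0 had 19 peaks, the doxycycline days 14, 11, 14, 17 and 11, and ESCs 4.

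**Figure D1:**
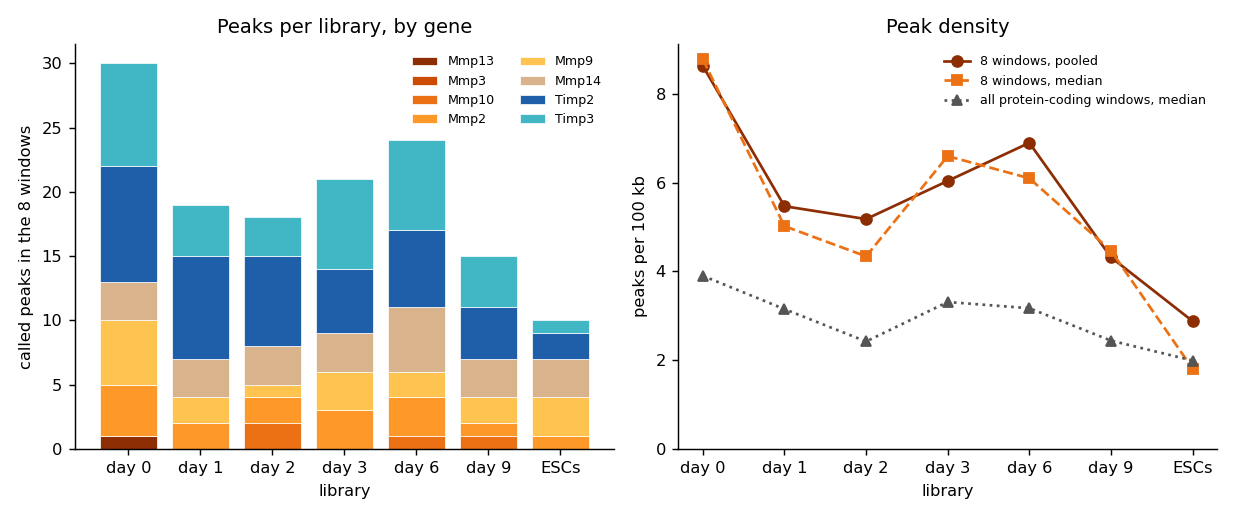
Left, called peaks in the windows of the 8 genes in each library, stacked by gene, from 30 on day 0 to 10 in ESCs. Right, peaks per 100 kb pooled over the 8 windows, the median of the 8 windows and the median of all protein-coding windows. The pooled value stood at 8.63 on day 0 and 2.88 in ESCs, with 1 library per time-point and no error bar.

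The inhibitor genes carried the larger share of the open regions. Timp2 and Timp3 together held 21 regions in 144 kb, against 19 in the 204 kb of the 6 MMP loci. On day 0 the inhibitor loci had 11.8 peaks per 100 kb and the MMP loci 6.38. In ESCs the values were 2.09 at the inhibitor loci and 3.43 at the MMP loci, and without peaks near the starts of other genes 2.09 and 1.96, so the order there rests on those peaks. Of 17 regions with a day 0 peak at the inhibitor loci, 14 had one on at least 1 doxycycline day and 1 in ESCs. Of 12 such regions at the MMP loci, 6 had one on at least 1 doxycycline day and 2 in ESCs. These are counts over 2 and 6 genes in 1 library each, and no test compares them.

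**Figure D2:**
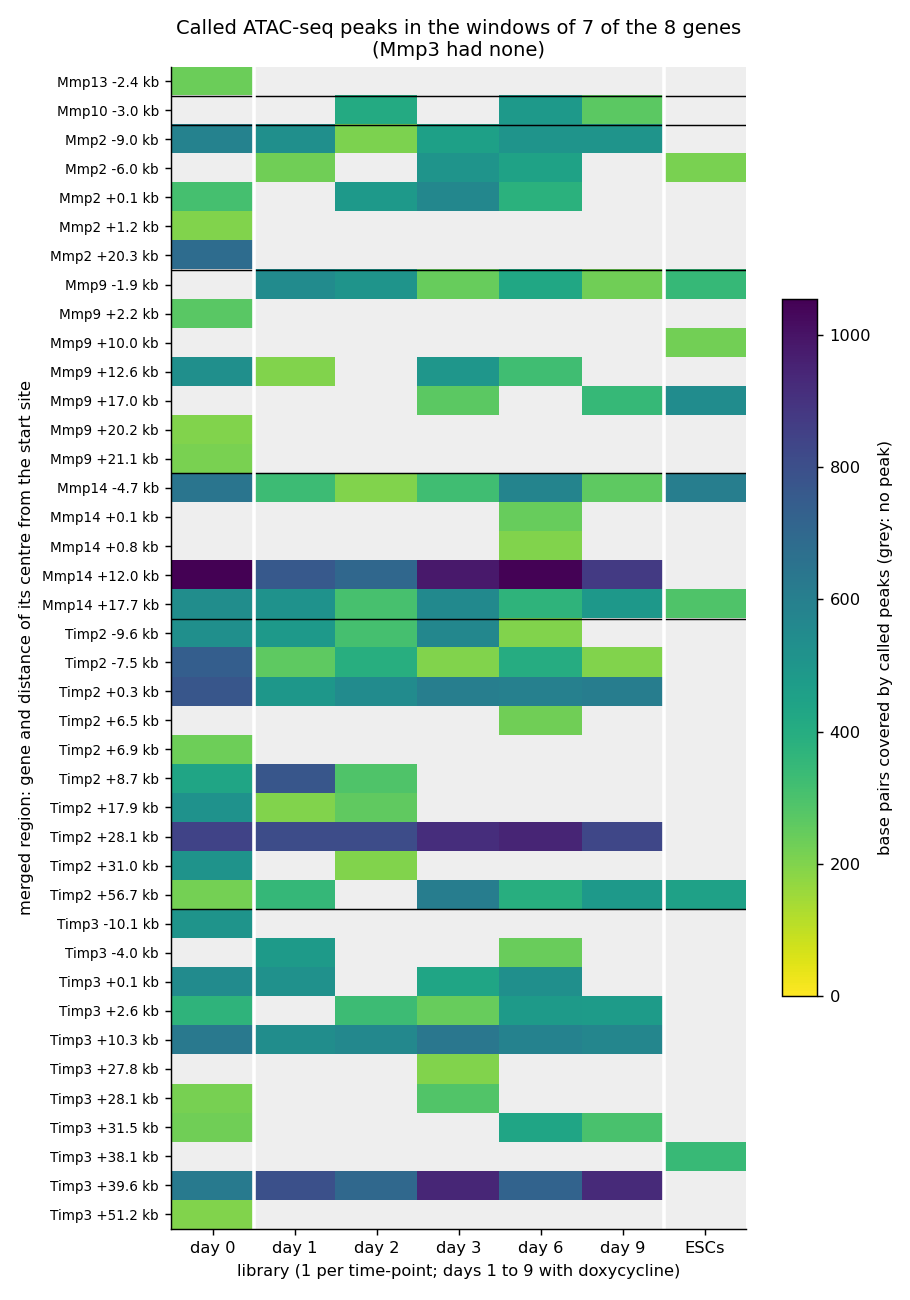
Base pairs covered by called peaks in each of the 40 merged regions (rows, ordered by gene and by distance of the region's centre from the start site) in the 7 libraries (columns); grey means no peak. The ESC column is grey in all but 8 rows, and the cells with the most covered base pairs lie between day 0 and day 9 at Mmp14, Timp2 and Timp3.

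The collagenase and stromelysin genes lie in the MMP gene cluster on chromosome 9 and were almost bare of peaks. Mmp13 (chr9:7272514-7283331, plus strand) had 1 peak, a 236 bp stretch 2.37 kb upstream on day 0, and none in the other 6 libraries. Mmp10 (chr9:7502352-7510240, plus strand) had a region 2.95 kb upstream (chr9:7499129-7499679) that was covered by peaks over 411 bp (day 2), 486 bp (day 6) and 266 bp (day 9), and by none on days 0, 1 and 3 or in ESCs. Mmp3 (chr9:7445822-7455975, plus strand) had no peak in its window in any library. Its nearest peak lay 20164 bp from the start site, on day 9, and in the other libraries between 20409 bp (day 6) and 188238 bp (ESCs). So 7 of the 8 genes had a peak in their window in at least 1 library, where 82.4% of protein-coding genes did.

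The promoters of these 3 genes hold the same pair of short letter matches, at differing distances from the start. The sequences below are up to 150 bases upstream of the start site, in the direction of transcription, from the RefSeq table (GRCm38.p6), which matched 6 of the 8 genes (not Mmp2 and Mmp9). They are shown because the AP-1 letters TGAGTCA (or TGACTCA, the other strand) and the letters TATAAA, both in capitals, stand in all 3 cluster promoters and in neither of the others printed. For Timp3, the 110 bases outside the annotated UTR are given. The 40 bases next to its RefSeq start are left out, so the comparison does not cover them. At the 3 cluster genes TATAAA lies within that distance of the start. For Timp2 no bases are given, since the RefSeq window lies within the UTR of the other annotation.
Mmp13 promoter, chr9:7272364-7272513: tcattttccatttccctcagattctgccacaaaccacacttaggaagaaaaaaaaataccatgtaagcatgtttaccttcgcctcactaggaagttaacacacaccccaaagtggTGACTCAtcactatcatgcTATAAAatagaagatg
Mmp3 promoter, chr9:7445672-7445821: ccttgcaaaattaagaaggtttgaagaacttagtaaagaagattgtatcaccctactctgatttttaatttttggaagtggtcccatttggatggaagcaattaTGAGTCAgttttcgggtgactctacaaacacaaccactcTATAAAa
Mmp10 promoter, chr9:7502192-7502341: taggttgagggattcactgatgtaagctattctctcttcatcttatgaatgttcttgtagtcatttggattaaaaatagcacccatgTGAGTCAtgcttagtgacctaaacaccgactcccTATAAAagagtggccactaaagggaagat
Mmp14 promoter, chr14:54431448-54431597: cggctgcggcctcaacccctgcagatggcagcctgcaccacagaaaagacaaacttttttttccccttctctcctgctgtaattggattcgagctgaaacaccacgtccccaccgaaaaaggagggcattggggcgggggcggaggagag
Timp3 promoter, chr10:86300262-86300371: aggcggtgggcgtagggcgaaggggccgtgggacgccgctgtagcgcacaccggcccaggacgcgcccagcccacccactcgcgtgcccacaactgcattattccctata

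The AP-1 letters begin at position -35 at Mmp13, -46 at Mmp3 and -63 at Mmp10, counted back from the RefSeq start. The letters TATAAA begin at -16, -7 and -29 at these genes, so their distance from that start is not shared. Of 32851 RefSeq promoters, 2.84% hold the AP-1 letters in the same 150 bases, 4.84% hold TATAAA on the coding strand and 0.228% hold both. None of the 3 had a peak within 1 kb of its start site in any library. A match of letters is a description of these windows and not a measured site of binding.

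The gelatinase genes differed from each other at their start sites. Mmp2 (chr8:92827291-92853420, plus strand) had a peak over its first exon (chr8:92827090-92827670) that covered 310 bp (day 0), 486 bp (day 2), 565 bp (day 3) and 381 bp (day 6), with none on days 1 and 9 or in ESCs. Mmp9 (chr2:164940780-164955850, plus strand) had no peak within 1 kb of its start in any library. Both genes had an upstream region that was absent on day 0 and present later. At Mmp9 it lay 1.94 kb upstream (chr2:164938566-164939125) and covered 545 bp (day 1), 509 bp (day 2), 243 bp (day 3), 428 bp (day 6), 230 bp (day 9) and 348 bp in ESCs. All 6 libraries other than day 0 thus had it, and no other region of the 8 loci had this pattern. At Mmp2 it lay 5.96 kb upstream (chr8:92821075-92821583) and covered 227 bp (day 1), 509 bp (day 3), 446 bp (day 6) and 210 bp in ESCs, with none on days 0, 2 and 9.

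These upstream regions of Mmp9 and Mmp2 are the only regions of the 40 whose centres hold the Oct letters ATGCAAAT, the octamer that POU factors such as Oct4 recognise (the other strand reads ATTTGCAT, as at Mmp2 above). The octamer stands in 2.28% of the centres of all regions. Of the 3 regions at these loci with peaks on doxycycline days and in ESCs but not on day 0, 2 hold it, where 5.86% of 3278 such regions in the genome do. Over whole regions the octamer stood in the same share of the 40, 5.00%, against 3.81% of all regions. The remaining one lies past the end of Mmp9, 17.0 kb from its start (chr2:164957512-164958073), and covered 264 bp (day 3), 348 bp (day 9) and 543 bp in ESCs. With 3 regions these shares are a description, and binding was not measured in these files.

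All but 1 of the other regions of the gelatinase loci had a peak on day 0 and none in ESCs, and they differed in when it was last called. Mmp2 had a region 8.96 kb upstream (chr8:92818037-92818629) that covered 588 bp (day 0), 529 bp (day 1), 206 bp (day 2), 457 bp (day 3), 507 bp (day 6) and 509 bp (day 9), and that had no peak in ESCs. It was of nearly the same width in 5 of these 6 libraries and narrower on day 2. A wide intronic peak of Mmp2, 20.3 kb past the start and 683 bp across, was called on day 0 alone, as was a 200 bp one at 1.22 kb. At Mmp9 an exonic region 12.6 kb past the start (chr2:164953092-164953694) covered 529 bp (day 0), 200 bp (day 1), 499 bp (day 3) and 322 bp (day 6), and none on days 2 and 9 or in ESCs. An intronic region at 2.16 kb had a 271 bp peak on day 0 alone, whose centre holds AP-1 and ETS letters. ESCs alone had a 225 bp peak over coding sequence at 9.96 kb (chr2:164950623-164950847). The remaining regions of the Mmp9 window, at 20.2 and 21.1 kb, were called on day 0 alone and lie at the start of the neighbouring Slc12a5, a neuronal chloride transporter gene.

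Mmp14 (chr14:54431612-54445364, plus strand) kept wide peaks throughout the MEF course, though not at its start. The widest region of the 8 loci covered its last exons (12.0 kb past the start, chr14:54443084-54444221, coding sequence and UTR). It covered 1054 bp (day 0), 759 bp (day 1), 704 bp (day 2), 980 bp (day 3), 1047 bp (day 6) and 873 bp (day 9), and no peak was called there in ESCs. At the start site itself, peaks of 246 bp (chr14:54431563-54431808) and 200 bp (chr14:54432297-54432496), both over UTR, were called on day 6 alone. The regions of the 40 with a peak in every library are both in this window, and both lie near the starts of other genes. One, 4.72 kb upstream (chr14:54426536-54427255), lies at the start of Mrpl52, a mitochondrial ribosomal protein gene, and covered 646, 331, 200, 324, 577 and 262 bp on days 0, 1, 2, 3, 6 and 9 and 605 bp in ESCs. The other, at 17.7 kb (chr14:54448933-54449752), lies within 1 kb of a small nuclear RNA gene and covered 308 to 553 bp in the MEF-derived libraries and 290 bp in ESCs. Without peaks near the starts of other genes, 0 regions of the 8 loci were shared by all libraries.

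Timp2 (chr11:118301069-118355740, minus strand) had a start-site peak in each of the 6 MEF-derived libraries. It encodes the inhibitor that also bridges MMP14 and pro-MMP2. Its window held 9 peaks before doxycycline, then 8, 7, 5, 6 and 4 peaks on days 1, 2, 3, 6 and 9, and 2 peaks in ESCs. The base pairs under peaks were 4793 on day 0, between 2122 (day 9) and 3371 (day 1) on the doxycycline days and 450 in ESCs. Its start-site region (chr11:118355054-118355849) covered 771 bp (day 0), 497 bp (day 1), 546 bp (day 2), 602 bp (day 3), 593 bp (day 6) and 606 bp (day 9). None was called in ESCs, and no other gene of the 8 had a start-site peak in more than 4 libraries.

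An intronic region of Timp2, 28.1 kb past the start (chr11:118327165-118328109), had a peak in all 6 MEF-derived libraries too. It covered 841 bp (day 0), 808 bp (day 1), 810 bp (day 2), 917 bp (day 3), 943 bp (day 6) and 829 bp (day 9), and had no peak in ESCs. A region 7.53 kb upstream (chr11:118362897-118363633) was seen in the same 6 libraries but narrowed, with 737 bp (day 0) and between 200 bp (days 3 and 9) and 401 bp (day 6) later.

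Other Timp2 regions were last called on different days. The region 9.58 kb upstream, with AP-1 letters at its centre, covered 528 bp (day 0), 482 bp (day 1), 310 bp (day 2), 568 bp (day 3) and 200 bp (day 6), and none on day 9 or in ESCs. An intronic region at 17.9 kb, with AP-1 and RUNX letters and within the nested gene Cep295nl, covered 515 bp (day 0), 200 bp (day 1) and 259 bp (day 2) and none afterwards. One at 8.68 kb had the same libraries, with 433 bp (day 0), 772 bp (day 1) and 291 bp (day 2). The only Timp2 region with an ESC peak lies past its end (56.7 kb from the start, chr11:118298737-118299389). It covered 222 bp (day 0), 352 bp (day 1), 608 bp (day 3), 394 bp (day 6), 487 bp (day 9) and 450 bp in ESCs, with none on day 2.

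**Figure D3:**
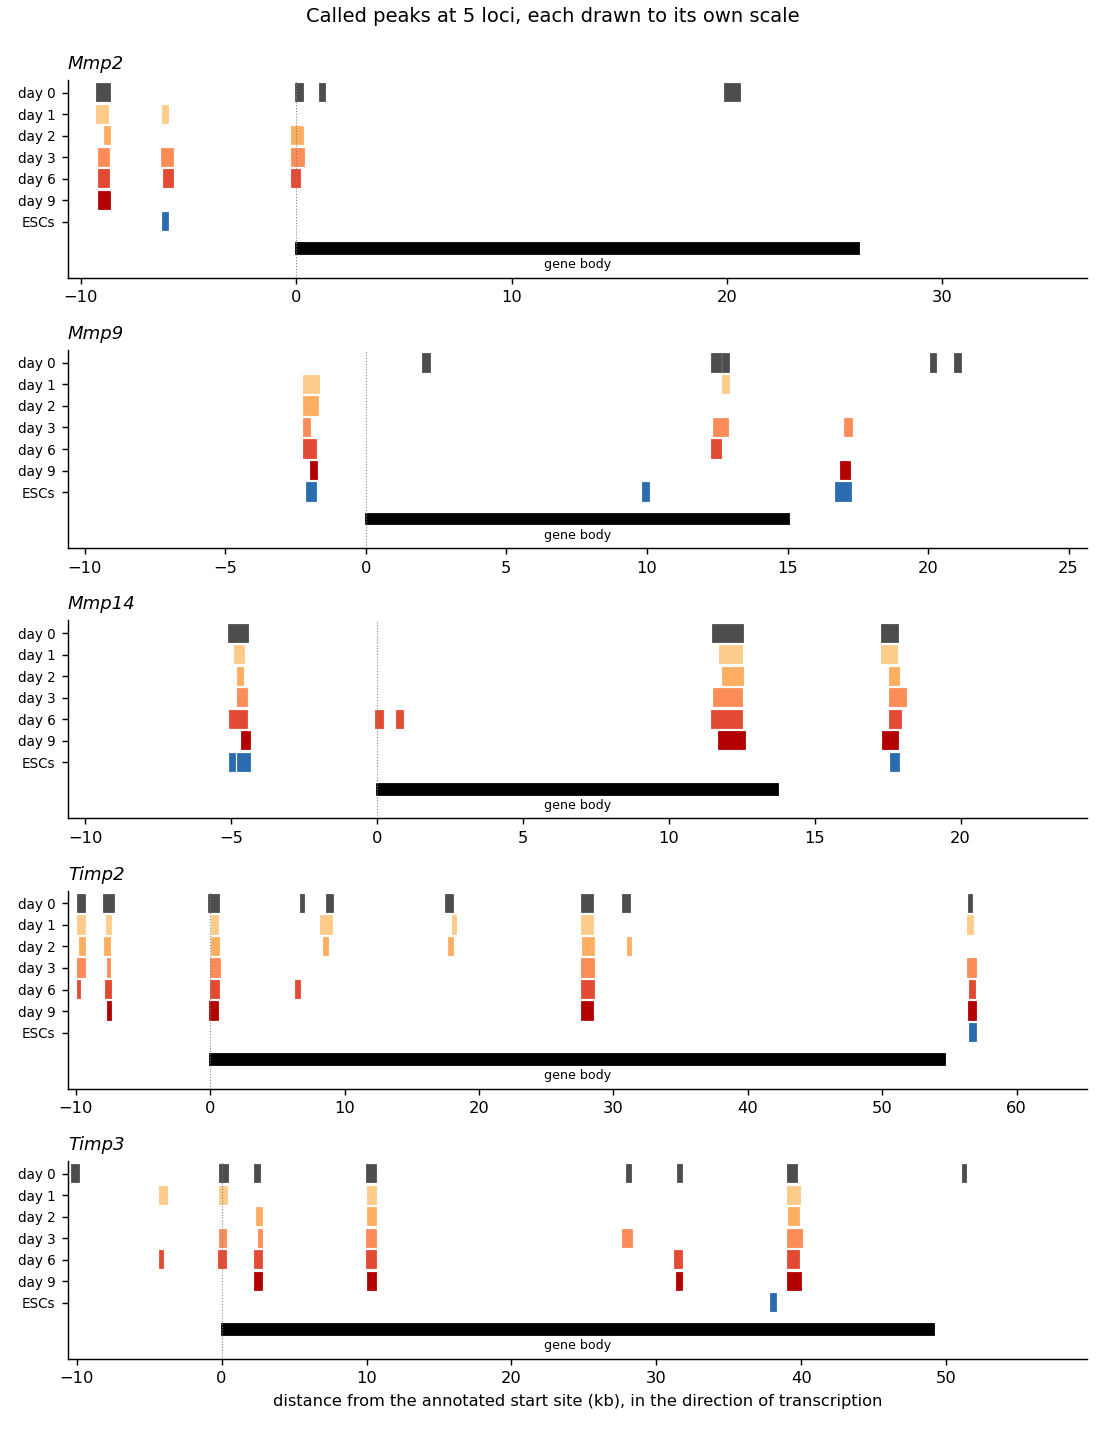
Called peaks (coloured blocks, 1 row per library) at 5 of the loci, by distance in kb from the annotated start site in the direction of transcription; the black bar is the gene body and each panel has its own scale. At Timp2 and Timp3 several blocks line up from day 0 to day 9 with none beneath them in the ESC row, while the block 1.94 kb upstream of Mmp9 begins on day 1 and goes on to ESCs.

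Timp3 (chr10:86300372-86349506, plus strand) encodes an inhibitor that is bound to the matrix, and it lies inside Syn3, a synapsin gene on the opposite strand. Its window held 8 peaks before doxycycline, then 4, 3, 7, 7 and 4 peaks over the same days, and 1 peak in ESCs. The start-site region (chr10:86300180-86300802) covered 546 bp (day 0), 522 bp (day 1), 435 bp (day 3) and 527 bp (day 6), with none on days 2 and 9 or in ESCs. The libraries without it were those with the fewest peaks. An intronic region at 39.6 kb (chr10:86339437-86340440) covered 621 bp (day 0), 796 bp (day 1), 698 bp (day 2), 941 bp (day 3), 718 bp (day 6) and 928 bp (day 9). Another at 10.3 kb (chr10:86310387-86311043) covered between 538 bp (day 1) and 635 bp (day 3), with 627 bp (day 0). Both had a peak in all 6 MEF-derived libraries, and neither had one in ESCs. A region at 2.56 kb (chr10:86302666-86303191) covered 367 bp (day 0), 330 bp (day 2), 246 bp (day 3), 480 bp (day 6) and 477 bp (day 9), with none on day 1 or in ESCs. The single ESC peak of the window, 345 bp wide at 38.1 kb (chr10:86338269-86338613, over coding sequence), had no counterpart in the MEF-derived libraries.

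Start-site peaks were thus seen at 3 of the 8 genes on day 0 (Mmp2, Timp2 and Timp3), at 2 each on days 1 and 2, at 3 on day 3, at 4 with Mmp14 on day 6, at Timp2 alone on day 9 and at 0 genes in ESCs. Over all protein-coding genes the shares with a peak within 1 kb of the start were 54.5%, 50.7%, 46.9%, 51.4%, 52.6% and 48.8% for days 0, 1, 2, 3, 6 and 9, and 46.0% for ESCs. The 3 genes with a day 0 start-site peak all lacked one in ESCs. Genome-wide, 20.7% of the 11967 genes with a start-site peak on day 0 lacked one in ESCs. With the starts of all annotated transcripts of each gene, 1 of the 8 genes had a start-site peak in ESCs.

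The start sites without peaks were poor in CpG. The ratio of observed to expected CpG within 500 bp of the start was 0.111 at Mmp13, 0.119 at Mmp3, 0.181 at Mmp10 and 0.218 at Mmp9, none of which had a start-site peak in any library. It was 0.464 at Mmp2, 0.549 at Timp2, 0.623 at Mmp14 and 0.664 at Timp3. Among protein-coding genes the median ratio was 0.194 for 8730 genes with no start-site peak in any library and 0.767 for 8450 with one in all 7. Mmp14, with a start-site peak in 1 library, stood above the median of 0.398 for such genes, and Timp2, with 6, below the median of 0.666.

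**Figure D4:**
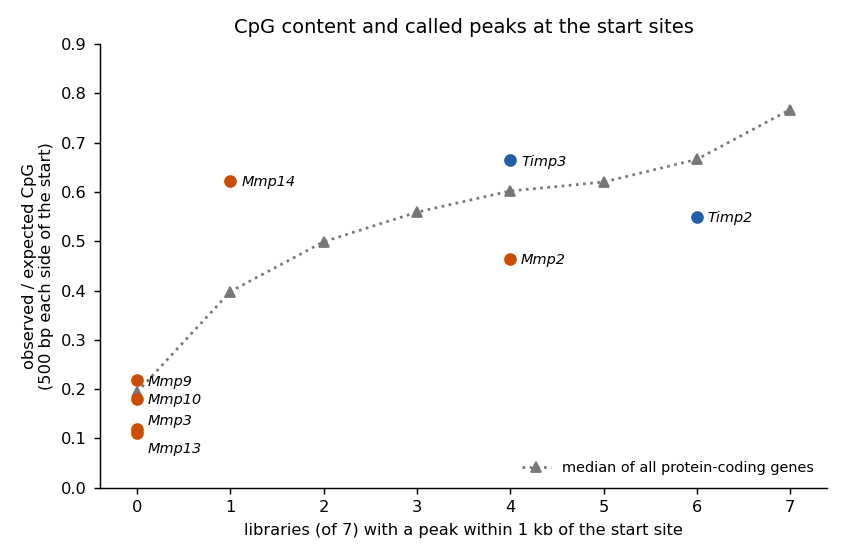
Ratio of observed to expected CpG within 500 bp of the start site against the number of libraries (of 7) with a peak within 1 kb of it, for the 6 MMP genes (orange), the 2 TIMP genes (blue) and the median of all protein-coding genes at each number (grey triangles). The 4 genes without a start-site peak lie between 0.111 and 0.218, and the other 4 between 0.464 and 0.664.

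Sorted by the libraries that called them, the 40 regions fell into 8 classes. Regions with a peak on day 0 and on all doxycycline days but not in ESCs numbered 7 (17.5%), against 4.99% of all regions. They lie at Timp2 (3), Timp3 (2), Mmp2 (1) and Mmp14 (1). Regions with peaks on day 0 and on some doxycycline days but not in ESCs numbered 10 (25.0%), against 15.5%. Those of day 0 alone numbered 9 (22.5%, against 23.9%) and those of the doxycycline days alone 6 (15.0%, against 30.7%). Regions of the doxycycline days and ESCs but not day 0 numbered 3 (7.50%, against 3.15%), those of ESCs alone 2 (5.00%, against 9.76%), those of all libraries 2 (5.00%, against 9.75%) and those of day 0 and ESCs with a gap between 1 (2.50%, against 2.32%). Regions of 1 locus share their chromatin surroundings and are not independent, so these counts carry no test.

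Of 29 regions with a day 0 peak, 15 each had one on days 1 and 2 (51.7%), 16 each on days 3 and 6 (55.2%), 12 on day 9 (41.4%) and 3 in the ESC library (10.3%). Over all 58856 regions with a day 0 peak the shares for days 1, 2, 3, 6 and 9 were 44.7%, 34.8%, 45.3%, 43.6% and 34.7%, and that for ESCs was 21.4%. Pooled, the loci thus lay above the genome on each doxycycline day and below it in ESCs. Timp2 and Timp3 held 17 of the 29 regions. The MMP loci taken alone lay below the genome on days 1 and 9 and above it on days 2, 3 and 6. On day 1 their 12 regions kept 1 at Mmp2, 1 at Mmp9 and 3 at Mmp14, so these gaps amount to few regions. The 26 day 0 regions without an ESC peak compare with 78.6% of all day 0 regions. All 14 day 0 regions in introns of protein-coding genes lacked an ESC peak, but so did 94.2% of such regions genome-wide, so the intronic loss is near the background. Of 8 regions with an ESC peak, 5 had none on day 0, where the share over all regions with an ESC peak was 51.7%.

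The median width of the 40 regions was 548 bp, against 424 bp for all regions. At a like number of libraries the widths were close to those of the genome. The 15 regions (37.5%) with a peak in 1 library had a median of 230 bp, against 235 bp for the 50.7% of all regions with this pattern. The 13 (32.5%) with peaks in at least 5 libraries had 720 bp, against 726 bp for 23.3% of all regions.

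At the centres of the 40 regions, AP-1 letters stood in 3 (7.50%, against 12.3% of all regions), RUNX letters in 3 (7.50%, against 15.7%), Sox letters in 1 (2.50%, against 11.7%), TEAD letters in 3 (7.50%, against 5.22%), KLF letters in 3 (7.50%, against 7.75%) and ETS letters in 9 (22.5%, against 25.4%). The AP-1 matches were at Timp2 (17.9 kb past and 9.58 kb before its start) and at Mmp9 (2.16 kb), all in regions with a day 0 peak and none in ESCs. They are 3 of 26 such regions at these loci (11.5%), against 19.7% of such regions in the genome. None of the 7 regions with a peak in all 6 MEF-derived libraries and none in ESCs had AP-1 letters at its centre, where 21.9% of 5209 such regions in the genome did. Over whole regions in place of centres, the shares with AP-1 letters were 42.9% of these 7 against 35.7%, and 20.0% of the 40 against 18.0%. For RUNX, Sox, TEAD, KLF and ETS they were 20.0%, 17.5%, 15.0%, 20.0% and 55.0% of the 40, against 28.5%, 21.2%, 9.41%, 14.3% and 45.0%.

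Of the pathway's other genes, 17 further MMP genes had start-site peaks at 5 on day 0, 2 to 5 on the doxycycline days and 4 in ESCs. Of all protein-coding genes, 54.5% had one on day 0, 46.9% to 52.6% on the doxycycline days and 46.0% in ESCs. Mmp17 had one in all 7 libraries, and Mmp16, which encodes a membrane-type MMP, in the 6 MEF-derived ones. Timp1, which encodes a secreted inhibitor, had a start-site peak in the 6 MEF-derived libraries and not in ESCs, the same libraries as Timp2. Reck, a membrane-anchored inhibitor gene, had one in all 7, and Timp4 in none. Of 16 genes for activators and partner proteases, 13 had a start-site peak on day 0, 8 to 12 on the doxycycline days and 10 in ESCs. Plau, which encodes the urokinase that activates plasminogen, had one in the 6 MEF-derived libraries and not in ESCs.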

How the data were processed

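ATAC-seq peaks of 7 libraries were used, 1 per time-point, so groups are time-points without replicates. The authors used Trimmomatic on the reads, Bowtie2 for mapping (mm10) and Picard to take out duplicates. They then downsampled all libraries to 1 depth, whose value is not given in the sources used here, and ran MACS2 library by library. The deposited files give peak positions alone, without counts, scores or q-values, so depth, peak height and counting error are unknown and a peak near the caller's threshold can be present in one library and missing in the next by sampling alone.

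Peaks touching a gene body (GENCODE M21) or its 10 kb flanks by 1 bp were counted per library. Peaks of all libraries that overlapped or touched were merged into regions, and each library's covered bases in a region were summed. A start-site peak lies within 1000 bp of the gene's annotated start. Motif letters were searched in the 200 bp centres of regions and, for promoters, in the RefSeq table. Scripts ran under Python 3.11.15 (matplotlib 3.10.9, pysam 0.24.0, numpy 2.4.6, scipy 1.17.1). The overlap code was tested on simulated regions, and its merged regions were checked against those of BEDTools 2.31.1.

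All 8 genes are named. Regions given by position are those at start sites, those in all libraries, those of day 0 and at least 3 doxycycline days without ESCs, those of at least 3 doxycycline days alone, and those of ESCs without day 0, with the 3 widest where a gene had more. Others are given by distance or count, some of them chosen after their values were seen. The genes and the lists were chosen with earlier results of these data known. Alternatives were peaks at least 300 bp wide, the same number of widest peaks per library, flanks of 5 and 20 kb, 50% of the peak within the window, other definitions of the start site, merging across 300 bp, whole regions for motifs, and leaving out days 2 and 9, the last chosen after the data were seen.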

Additional observations from a re-analysis of the deposited data

How the results depend on the processing

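No paired analysis was possible because no group holds more than 1 library. Of 142 values under the alternatives, 121 stayed within 1.5 times the reported value or within its 95% interval and 21 moved. The interval, used for motif shares, is a binomial one that treats the 40 regions as independent, which they are not. It is wide: AP-1, KLF and RUNX shares of 7.50% at centres and 20.0% over whole regions counted as unmoved. With peaks at least 300 bp wide, the loci held 19 (day 0), 11 (day 2) and 4 (ESCs) peaks, and the regions numbered 4 for day 0 alone, 1 for ESCs alone and 0 for all libraries. With the same number of widest peaks per library, day 0 had 15 peaks, and the regions numbered 3 for day 0 alone, 5 for day 0 with some doxycycline days and 1 for all libraries. Without peaks near other genes' starts 0 regions were shared by all libraries, and with 20 kb flanks 4 were. Without peaks near other genes' starts the MMP loci also had 1.96 peaks per 100 kb in ESCs, an alternative chosen after the data were seen. With a peak over the start base itself, 1 gene had a start-site peak on day 1 and 1 on day 2. With the starts of all transcripts, 2 genes had one on day 9 and 1 in ESCs. Over whole regions, which are longer sequences, the ETS letters stood in 55.0%, against 45.0% of all regions, and the Sox letters in 17.5%, against 21.2%. Without days 2 and 9, regions of day 0 with some doxycycline days numbered 6 and those of day 0 and ESCs with a gap 0, since fewer libraries can be missing. A stricter q-value could not be tried without scores, and no outlier or group test applies to 1 library per time-point.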

Other observations

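The MMP gene cluster on chromosome 9 (chr9:7262514-7709585, from 10 kb before Mmp13 to 10 kb past the last of its 10 MMP genes, examined after the other values were seen) held 7 peaks before doxycycline, then 1, 4, 1, 4 and 3 peaks on days 1, 2, 3, 6 and 9, and 1 peak in ESCs. This is 1.57 peaks per 100 kb on day 0 and 0.224 in ESCs, against 2.25 and 0.991 in the genome. Peaks of all libraries merged into 11 regions there. One of them, chr9:7595097-7595722, had a peak in the 6 MEF-derived libraries and none in ESCs, and it lies 24013 bp from the start of Mmp27, the nearest MMP gene start. A region at chr9:7572607-7573118, 1466 bp from that start, had peaks on days 0 and 6. The single ESC peak of the cluster, 386 bp wide, lay 6021 bp from the start of Mmp20, which encodes the enamel protease enamelysin, and was seen in no other library.

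Among other genes of the family, Mmp28 had 6 peaks in its window on day 0, 4 to 7 on the doxycycline days and 3 in ESCs, and Mmp15 had 1 on day 0, 1 or 2 on the doxycycline days and 3 in ESCs. Ctsk, which encodes the collagen-cutting cathepsin K, had 5 on day 0, 0 on days 1, 2 and 9, 1 on day 3, 2 on day 6 and 0 in ESCs.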
